A study of Mus musculus with 12 samples.

Results

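Whole-brain RNA was compared between BALB/c mice lacking interleukin-18 and wild-type BALB/c mice at 6 weeks of age, using 3 arrays of each genotype out of the 12 arrays in the series. The labels call the arrays of a group biological replicates, state that the mice received no treatment, and place the other 6 arrays at 12 weeks of age. They do not give the sex of the mice, the part of Il18 that was deleted, the number of backcrosses or the time of day of collection. Each array is a 1-colour microarray of 62976 spots, and each value below is the log2 fluorescence of a probe minus the log2 75th percentile of its own array. A gene was tested when its probe stood well above background on each array of either genotype, and 25798 genes passed. The word called marks an adjusted p under 0.05 (limma, two-sided, Benjamini-Hochberg over all genes tested). Errors after ± are standard errors from that fit unless named as SD.

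Wild-type arrays and knockout replicates 1 and 2 are on one slide, and knockout replicate 3 is on a second slide, as the file headers show. The change of replicates 1 and 2 against the wild type is therefore given beside that of all 3 knockout arrays for the called genes named below. The 3 wild-type arrays are also in slide column 2 and the 3 knockout arrays in column 1, so that slide column and genotype cannot be told apart within this age. Between 65.9% and 69.4% of spots were well above background, and the 75th percentile of the signal ranged from 890.1 to 1187.7 units. On the first principal component of the 6 arrays, with 39.6% of the variance, the wild-type arrays lay between -31.5 and -19.5 and the knockout arrays between 12.2 and 42.3, with replicate 3 highest. The labelled tissue was borne out by its markers: the synaptic genes Snap25 and Syt1, the myelin gene Mbp, the astrocyte gene Gfap and the microglial receptor Cx3cr1 were above background on all 6 arrays and were not called. The Y-linked gene Ddx3y lay between 1.13 and 1.34 on all 6 arrays. Another Y-linked gene, Eif2s3y, lay between 1.27 and 1.41 on the wild-type arrays and at -1.68, 0.08 and 0.71 on the knockout arrays, and was not called (adjusted p = 0.109).

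Interleukin-18 is a cytokine of the interleukin-1 family. It is made as an inactive precursor that caspase-1 cleaves within the inflammasome, and it signals through a receptor of 2 subunits and the adaptor MyD88 to NF-kB. A soluble binding protein, encoded by Il18bp, holds it in check. In the brain it is made by microglia, ependymal cells and some neurons.

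Il18 was measured by 1 probe, at chr9:50389761-50389820 on genome build mm9. Its sequence is shown because it tells which end of the transcript the signal reports: it holds an open frame of 18 codons that closes with the stop codon in capitals, 1 base before the probe's 3′ end. A second probe, for Shank2 at chr7:151606981-151607040, is shown with it because the probes of that gene, described further on, disagreed; it closes an open frame of 19 codons with the stop codon in capitals.
Il18 probe: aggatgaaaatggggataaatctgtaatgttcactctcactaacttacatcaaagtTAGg
Shank2 coding probe: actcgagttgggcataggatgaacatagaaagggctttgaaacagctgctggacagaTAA

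The Il18 probe read 1.601, 1.755 and 1.525 on the wild-type arrays and -0.28, -0.166 and -0.203 on the knockout arrays. The genotypes were far apart, and all 3 knockout arrays stayed well above background. Il18 was 3.59-fold lower in the knockout, a log2 change of -1.84 ± 0.10 (adjusted p = 1.74e-05), and -1.85 from replicates 1 and 2 (adjusted p = 0.000213). Since the labels do not say which part of the gene was removed, the remaining signal of the stop codon end does not tell whether a shortened transcript was left.

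Of 31 genes listed for interleukin-18 signalling and the inflammasome, 23 could be tested. The receptor subunits Il18r1 and Il18rap and the downstream cytokine Ifng were among the 8 that were not above background on all arrays of either genotype. Besides Il18, only Myd88 was called in this list. With Il18 counted that makes 2 of 23 members, beside 1.08% of all genes tested. Il18 is the knocked-out gene itself, so its call says nothing about the rest of the list. Myd88 read -1.52, -1.54 and -1.46 in the wild type and -1.15, -1.24 and -0.94 in the knockout. Its rise of 0.40 ± 0.08 had an adjusted p of 0.0485, which became 0.0667 with replicates 1 and 2. That call also ended when any 1 array other than knockout replicate 2 was left out, with adjusted p up to 0.129. The precursor-cleaving enzyme Casp1 differed by -0.30 ± 0.08 (adjusted p = 0.0954), the related Casp4 by -0.68 ± 0.17 (0.0799) and the binding protein gene Il18bp by 0.24 ± 0.14 (0.353), none of them called. The median change of the 23 members was 0.12, beside 0.04 over all genes.

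Over all genes, 278 were called, or 1.08%: 157 were higher in the knockout (0.609%) and 121 were lower (0.469%). The wild-type and knockout arrays did not overlap for any of the 278, which holds for 24.2% of all genes tested. The absolute log2 change of called genes had a median of 0.66 and reached down to 0.31, and 167 of them changed at least 1.5-fold. With replicates 1 and 2 alone, 146 genes were called (0.566%), of which 111 were also called with all 3 knockout arrays and in the same direction. Among the 278, the change from replicates 1 and 2 was 0.722 to 1.21 times the full change, with a median of 0.949. The count was sensitive to single arrays: it was 84 without knockout replicate 1, 280 without replicate 2 and 146 without replicate 3, and 112, 99 and 125 without wild-type replicates 1, 2 and 3. It also moved with the scaling: scaling each array to its median gave 468 genes called higher and 99 lower, and quantile normalization gave 325 and 157.

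**Figure D1:**
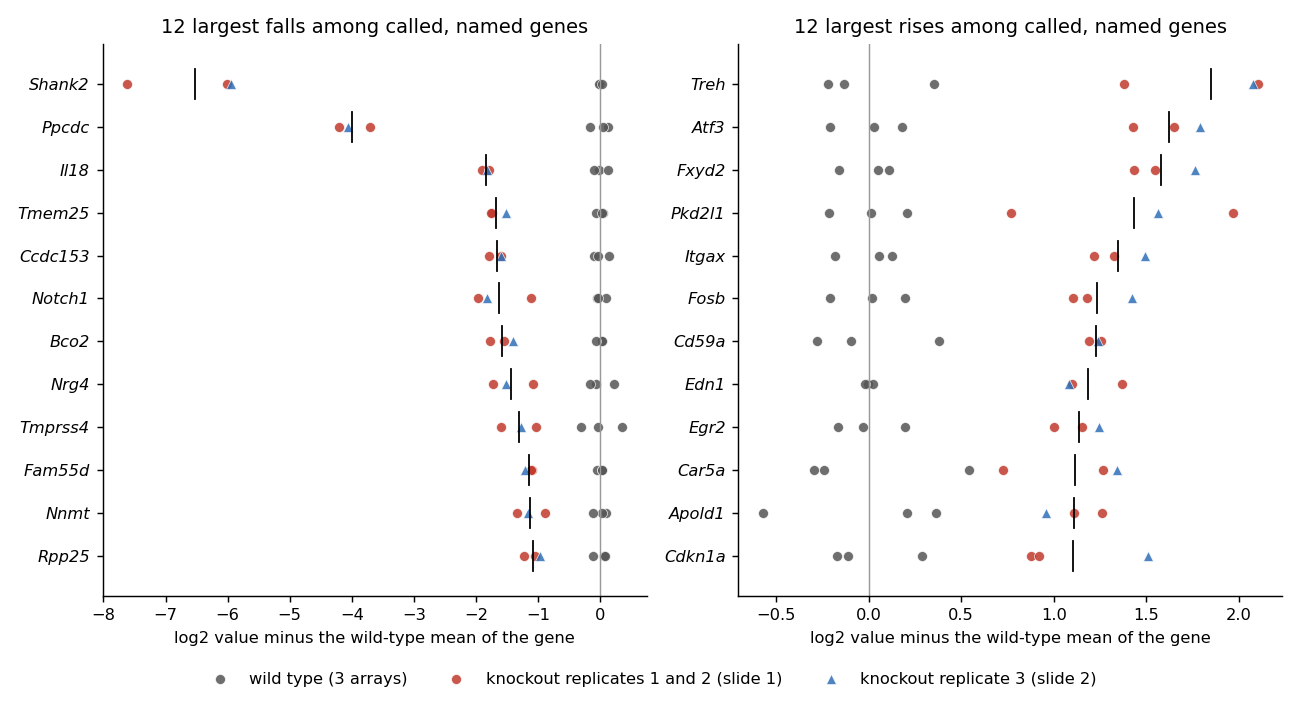
Largest changes by array. Each row is a gene, and the x axis is the log2 value of an array minus the wild-type mean of that gene. Grey circles are wild-type arrays, red circles knockout replicates 1 and 2, blue triangles replicate 3 and black bars the knockout means. Shank2 and Ppcdc were not above background on any knockout array, so that their points on those arrays are bounds; their falls were at least 67.1-fold and at least 4.74-fold.

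A larger share of genes was called around Il18 on chromosome 9 than in the rest of the genome. Of 291 tested genes whose probe starts within 10 Mb of the Il18 probe, Il18 itself left out, 36 were called, or 12.4%, compared with 241 of 25506 other genes, or 0.945%. They moved both ways, 19 higher and 17 lower. With replicates 1 and 2 alone the shares were 9.97% and 0.455%. The share was 18.3% within 2.5 Mb, 5.08% from 2.5 to 5 Mb and 12.8% from 5 to 10 Mb, and then 1.32% from 10 to 20 Mb and 1.84% beyond 30 Mb. It was 17.1% on the centromeric side, at lower coordinates, and 8.64% on the other. Chromosome 9 as a whole had 54 calls among 1319 genes (4.09%), whereas every other chromosome with a call lay between 0.312% and 1.88%. The count of 36 fell to 22 without wild-type replicate 2 and to 23 without knockout replicate 1.

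**Figure D2:**
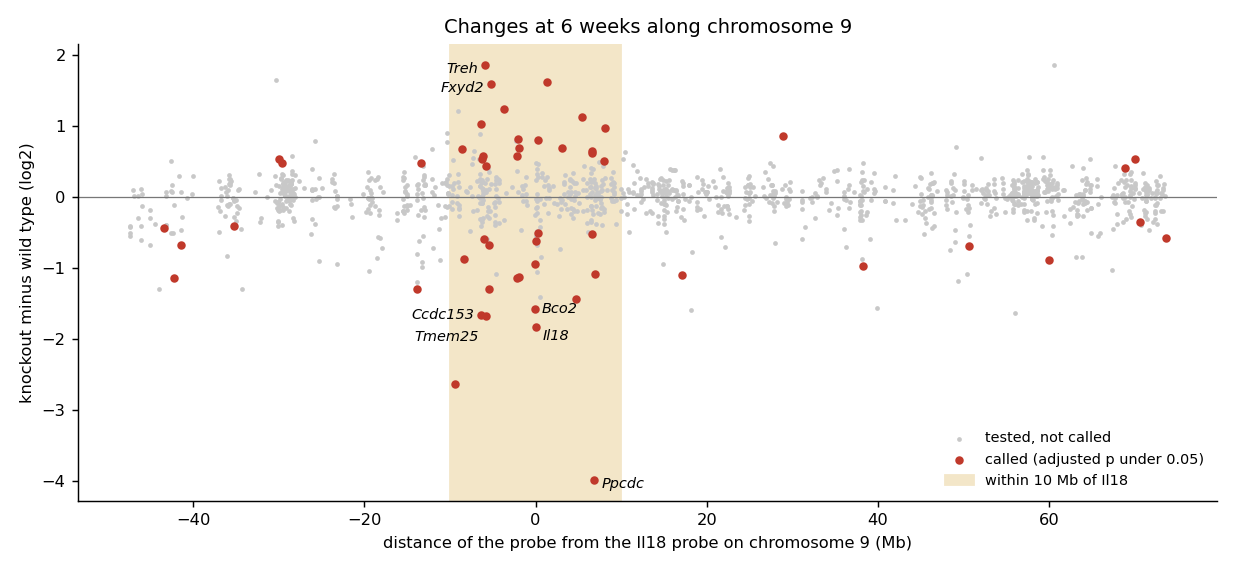
Changes along chromosome 9. The x axis is the distance of a gene's probe from the Il18 probe in Mb, and the y axis is knockout minus wild type at 6 weeks in log2 units; red points were called, grey points were not, and the shaded band is within 10 Mb. Called genes in both directions crowd into the band, where 36 of 291 genes were called.

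The called genes closest to Il18 on its centromeric side, Bco2 and Pts, fell. Bco2, which encodes a mitochondrial enzyme that cleaves carotenoids, starts 0.05 Mb away and read -1.69, -1.69 and -1.79 in the wild type and -3.50, -3.27 and -3.13 in the knockout. Its change was -1.58 ± 0.10 (adjusted p = 3.7e-05). Pts, the second enzyme of tetrahydrobiopterin synthesis, lies 0.06 Mb away and read 0.77, 0.94 and 0.79 against -0.13, -0.04 and -0.19. Its change was -0.95 ± 0.08 (adjusted p = 0.000256), so that the knockout held 1.94-fold less signal of a gene needed to make the cofactor of monoamine synthesis. The changes from replicates 1 and 2 were -1.66 for Bco2 (adjusted p = 7.48e-05) and -0.92 for Pts (0.00156).

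On the other side, the closest called gene was Pih1d2, at 0.04 Mb, which fell by 0.62 ± 0.10 (adjusted p = 0.018; -0.55 and 0.0486 from replicates 1 and 2). Alg9, a mannosyltransferase of N-glycan assembly, fell by 0.51 ± 0.06 at 0.26 Mb (0.00609; -0.54 and 0.0103 from replicates 1 and 2). C130081A10Rik, at 0.27 Mb, rose by 0.80 ± 0.12 (0.0145; 0.82 and 0.0396 from replicates 1 and 2). Leaving out wild-type replicate 2 ended the calls of Pih1d2 (0.0668) and C130081A10Rik (0.0575), and the latter also ended without wild-type replicate 1 or knockout replicate 1. Pih1d2 and C130081A10Rik fall outside the naming rule and are named after their values were seen.

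The lowest adjusted p on chromosome 9 was that of Ppcdc, which encodes the decarboxylase step of coenzyme A synthesis. It lies 6.87 Mb from Il18, on the side away from the centromere. It read -3.81, -3.90 and -4.11 on the wild-type arrays. On the knockout arrays it read -8.15, -7.65 and -8.00, not well above background on any of them. Against the lowest signal marked above background on each array, Ppcdc was at least 4.74-fold lower (adjusted p of the fit 2.09e-07; 8.59e-06 with replicates 1 and 2). Rpp25, a subunit of ribonuclease P, lies next to it at 6.96 Mb and fell by 1.08 ± 0.10 (adjusted p = 0.00073; -1.14 and 0.00231 from replicates 1 and 2).

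A second cluster of large changes lay 5.17 to 6.33 Mb toward the centromere and went both ways. Tmem25, a transmembrane protein gene, read 3.31, 3.20 and 3.29 in the wild type and 1.524, 1.502 and 1.74 in the knockout, a change of -1.68 ± 0.08 (adjusted p = 4.58e-06). Ccdc153, a gene of motile cilia, fell by 1.66 ± 0.12 (0.00014). Fxyd2, the gamma subunit of the sodium-potassium pump, rose from 0.99, 1.20 and 1.26 to 2.58, 2.70 and 2.91, by 1.58 ± 0.13 (0.000231). Slc37a4, the glucose-6-phosphate transporter of the endoplasmic reticulum, rose by 0.57 ± 0.07 (0.00689). The trehalose-cleaving enzyme gene Treh was not above background on any wild-type array and was at least 1.39-fold higher in the knockout (0.0312). That call ended when any 1 array other than knockout replicate 1 was left out, with adjusted p up to 0.0946, and the serine protease gene Tmprss4, at -1.31 ± 0.24 (0.0363), lost its call without any array other than knockout replicate 2, with adjusted p up to 0.108. The changes from replicates 1 and 2 were -1.75 for Tmem25 (adjusted p = 9.38e-06), -1.70 for Ccdc153 (0.00108), 1.49 for Fxyd2 (0.00156), 0.53 for Slc37a4 (0.0213) and -1.32 for Tmprss4 (0.0865), and the adjusted p of Treh was 0.0874. Treh and Tmprss4 were thus not called from those arrays.

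Further called genes within 10 Mb of Il18 included Fam55d, which fell by 1.14 ± 0.09 (adjusted p = 0.000141). The exonuclease gene Rexo2 rose by 0.58 ± 0.06 (0.00171) and by 0.51 at a second probe (0.0234). Both lie within 2.2 Mb of Il18 on its centromeric side. Nnmt, which methylates nicotinamide, fell by 1.13 ± 0.19 (0.0233), and Zbtb16, a zinc-finger transcription factor that glucocorticoids induce, rose by 0.69 ± 0.13 (0.0445). Neither was called without knockout replicate 3 (0.0646 and 0.0977) or without any 1 wild-type array; the call of Nnmt also ended without knockout replicate 2 and that of Zbtb16 without replicate 1. Farther out on the centromeric side, Sc5d, which carries out a late step of cholesterol synthesis, fell by 0.88 ± 0.10 at 8.33 Mb (0.00266). It was the 1 called gene among 25 of that pathway, whose median change was 0.05. Nrg4, a growth factor that binds the receptor ErbB4, fell by 1.44 ± 0.21 at 4.68 Mb on the other side (0.0125). Its call ended without wild-type replicate 2 or knockout replicate 1 (up to 0.0516). A second, dimmer Nrg4 probe, above background on 1 knockout array, gave -1.22 ± 0.46 (0.201) and was not called. From replicates 1 and 2 the changes were -1.11 for Fam55d (adjusted p = 0.00108), 0.604 for Rexo2 (0.00275), -1.12 for Nnmt, 0.59 for Zbtb16, -0.77 for Sc5d (0.00191) and -1.40 for Nrg4 (0.0463).

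The largest change in the data was on another chromosome. Shank2 encodes a scaffold of the postsynaptic density. Its brighter probe, at chr7:151610225-151610284, read -0.12, -0.14 and -0.08 on the wild-type arrays. On the knockout arrays it read -7.73, -6.13 and -6.07, not well above background on any of them. The drop was at least 67.1-fold (adjusted p of the fit 1.74e-05 with all 3 knockout arrays and 7.48e-05 with replicates 1 and 2). The coding probe printed above, which starts 3244 bases before it, had signal above background on each of the 6 arrays, with means of -3.97 in the wild type and -3.99 in the knockout. Its change was -0.03 ± 0.12 (adjusted p over all probes 0.917). So the probes of Shank2 disagree, and the loss was seen at 1 position only.

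Among 40 genes of glutamate receptors and the postsynaptic density, the other called member was Shank3, a related scaffold. It read 1.83, 1.77 and 1.70 in the wild type and 2.17, 2.14 and 2.27 in the knockout, a rise of 0.43 ± 0.07 (adjusted p = 0.016), and of 0.39 from replicates 1 and 2 (0.0357). Leaving out wild-type replicate 2, wild-type replicate 3 or knockout replicate 1 ended this call (up to 0.0632), and a second, dimmer probe gave 0.54 (0.247). The median of the 40 was 0.06.

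Mpeg1, Ccnd1 and Notch1 were further named falls away from chromosome 9. Ccnd1 (chr7:152116202) lies near the brighter Shank2 probe. So does 1810010D01Rik (chr7:152391790), which fell by 1.49 ± 0.22 (adjusted p = 0.013, and 0.0495 from replicates 1 and 2). Lpxn (chr19:12908221), near Mpeg1 (chr19:12539387), fell by 0.78 ± 0.08 (0.00109, and 0.000545 from replicates 1 and 2). 1810010D01Rik and Lpxn are outside the naming rule and are named after their values were seen. The part of position in these falls was not tested. Mpeg1, which encodes the pore-forming protein perforin-2 of macrophages and microglia, was tight within each genotype: 0.96, 1.01 and 0.96 in the wild type and 0.05, 0.12 and 0.11 in the knockout. The change of -0.89 ± 0.06 (adjusted p = 6.98e-05) was -0.89 from replicates 1 and 2 (0.000317). A second, dimmer Mpeg1 probe gave -0.51 ± 0.27 (0.332), so the size rests on the brighter probe. The other 23 microglial markers tested were not called, and the list's median was -0.01. Ccnd1, the cyclin that starts the cell cycle in G1, read 1.73, 1.83 and 1.87 against 1.195, 1.005 and 1.115, a change of -0.70 ± 0.07 (0.000933; -0.71 and 0.00389 from replicates 1 and 2), called alone among 23 proliferation genes with a median of 0.07.

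The receptor gene Notch1 varied more. It read 0.06, -0.10 and -0.08 in the wild type and -2.003, -1.152 and -1.869 in the knockout, a change of -1.64 ± 0.28 (adjusted p = 0.0251; -1.54 and 0.078 from replicates 1 and 2). Its call ended when any 1 array other than knockout replicate 2 was left out, with adjusted p up to 0.0817.

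The rises of Cd59a and Edn1, away from chromosome 9, stayed called when any 1 array was left out. With slide column as a block, Edn1 stayed called, at 1.28 (adjusted p = 0.0234), but Cd59a did not, at 1.12 (0.185). Cd59a also lost its call on slide 1 alone and when only the 6 arrays at 6 weeks were fitted. The complement inhibitor gene Cd59a read 0.53, 0.05 and -0.13 in the wild type and 1.34, 1.41 and 1.39 in the knockout, a rise of 1.23 ± 0.14 (adjusted p = 0.00306; 1.22 and 0.0186 from replicates 1 and 2). Edn1, the vasoconstrictor endothelin-1, read -3.93, -3.90 and -3.95 against -2.56, -2.83 and -2.85, a rise of 1.18 ± 0.10 (0.000396; 1.23 and 0.00171 from replicates 1 and 2). Others rested on fewer arrays. The cation channel gene Pkd2l1, which marks neurons contacting the cerebrospinal fluid, read -3.96, -2.76 and -3.17 in the knockout against -4.95 to -4.53 in the wild type, a rise of 1.43 ± 0.27 (0.0376) that was 1.37 (0.0969) from replicates 1 and 2. That call ended without any array other than knockout replicate 1, with adjusted p up to 0.111. The mitochondrial carbonic anhydrase gene Car5a rose by 1.11 ± 0.22 (0.0481; 0.997 and 0.113 from replicates 1 and 2), a call that ended without any array other than wild-type replicate 2, up to 0.129.

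Genes of neuronal activity and acute stimulation formed the group with the highest median. Immediate early genes are transcribed within minutes of synaptic activity, growth factors or stress, mostly through the transcription factors CREB and SRF, and their products are transcription factors or act at the synapse. Of 31 listed genes, all tested, 8 rose, beside 0.609% of all genes called higher. The median change was 0.45, or 0.57 from replicates 1 and 2, beside 0.04 and 0.02 over all genes. A total of 30 of the 31 changes were above 0, beside 14916 of 25798 over all genes, and the arrays of the genotypes did not overlap for 22, beside 24.2% of all genes. The list's mean level was 0.28 to 0.36 on the wild-type arrays and 0.90 to 0.91 on the knockout arrays, and all 3 knockout arrays, on both slides, shared it.

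Among transcription factors, Atf3, a stress-induced factor of the ATF family, rose from -3.48, -3.72 and -3.33 to -2.08, -1.86 and -1.72, by 1.62 ± 0.12 (adjusted p = 0.00014). Fosb, a partner of Jun in AP-1, rose from -0.45, -0.68 and -0.27 to 0.64, 0.71 and 0.96, by 1.24 ± 0.11 (0.00066). Its relatives Fosl2 and Fos rose by 0.85 ± 0.12 (0.013) and 1.04 ± 0.19 (0.0328). The zinc-finger factors Egr2 and Egr4 rose by 1.13 ± 0.15 (0.00812) and 0.84 ± 0.12 (0.0119), and the orphan receptor Nr4a1 by 0.71 ± 0.11 (0.0152). From replicates 1 and 2 the changes were 1.54 for Atf3 (adjusted p = 0.000866), 1.14 for Fosb (0.00275), 0.82 for Fosl2 (0.0461), 1.08 for Egr2 (0.0346) and 0.75 for Egr4 (0.0357). Fos, at 1.06 (0.0785), and Nr4a1, at 0.67 (0.0506), were not called from those arrays. Fos and Nr4a1 fall outside the naming rule and are named after their values were seen. The call of Fos ended whichever array was left out (up to 0.103), and that of Nr4a1 whichever was left out except wild-type replicate 1 and knockout replicate 2 (up to 0.0622).

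Of the effectors, Arc, which acts on AMPA receptor endocytosis at synapses, read 4.19, 4.11 and 4.18 in the wild type and 4.98, 5.09 and 5.38 in the knockout, a rise of 0.99 ± 0.13 (adjusted p = 0.00738), and of 0.88 from replicates 1 and 2 (0.022). Members that missed the threshold included Egr1 at 0.45 (0.0554) and the neuron-specific factor Npas4 at 0.98 ± 0.26 (0.1). Dusp5, at -0.07 (0.917), was the 1 member below 0. The count of 8 fell to 5 without wild-type replicate 2 or knockout replicate 1, and with replicates 1 and 2 alone 6 were called. The calls of Egr4, without knockout replicate 1, and of Fosl2, without wild-type replicate 2, ended at 0.0516 and 0.052. When only the 6 arrays at 6 weeks were fitted, Egr4, Fosl2 and Nr4a1 lost their calls. Of the 8, only Atf3 stayed called once slide column entered the fit as a block, at 1.56 (0.0188); that column effect rests on the wild-type arrays at 12 weeks. The others kept their sign but not their call, with Fosb at 1.20 (0.0624), Egr4 at 0.92 (0.205), Arc at 0.81 (0.365), Egr2 at 0.80 (0.456), Fosl2 at 0.63 (0.516), Nr4a1 at 0.52 (0.549) and Fos at 0.90 (0.614). The part of slide column in these rises was not tested within this age.

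The cAMP response element core TGACG, searched on both strands in the 250 bases before and 50 bases after each start of RefSeq on GRCm38.p6, was in at least 1 window of 6 of the 7 called immediate early genes with an entry, compared with 23.0% of 27025 genes counted in the same way. A CArG box, the SRF motif, was in those of Egr2 alone, compared with 1.81% of all genes. The 120 bases before 1 start of Egr2 (chr10:67537446-67537565, plus strand) are shown as the promoter of a gene that rose, with the CArG box in capitals. The 120 bases before the start of Ciart, a clock gene that fell and that the array names Gm129, are set beside it (chr3:95882229-95882348, minus strand); the capitals mark 3 copies of the E-box CACGTG, which reads the same on both strands. An E-box was in the windows of 1 of the 6 called clock genes with an entry, Gm129, and of 1 of the 7 immediate early genes, Egr2, compared with 8.09% of all genes. Further motifs were searched in the same way. A RORE was in the windows of Arntl alone, compared with 0.459% of all genes. A D-box was in those of none of these genes, compared with 1.23%. Uncalled members of both lists were not counted. A match describes these letters and does not show that a factor binds.
Egr2: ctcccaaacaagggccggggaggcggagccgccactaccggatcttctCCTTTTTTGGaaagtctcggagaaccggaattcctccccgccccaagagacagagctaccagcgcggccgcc
Ciart: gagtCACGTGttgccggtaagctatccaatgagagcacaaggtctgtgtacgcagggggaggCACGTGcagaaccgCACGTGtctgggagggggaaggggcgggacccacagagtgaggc

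**Figure D3:**
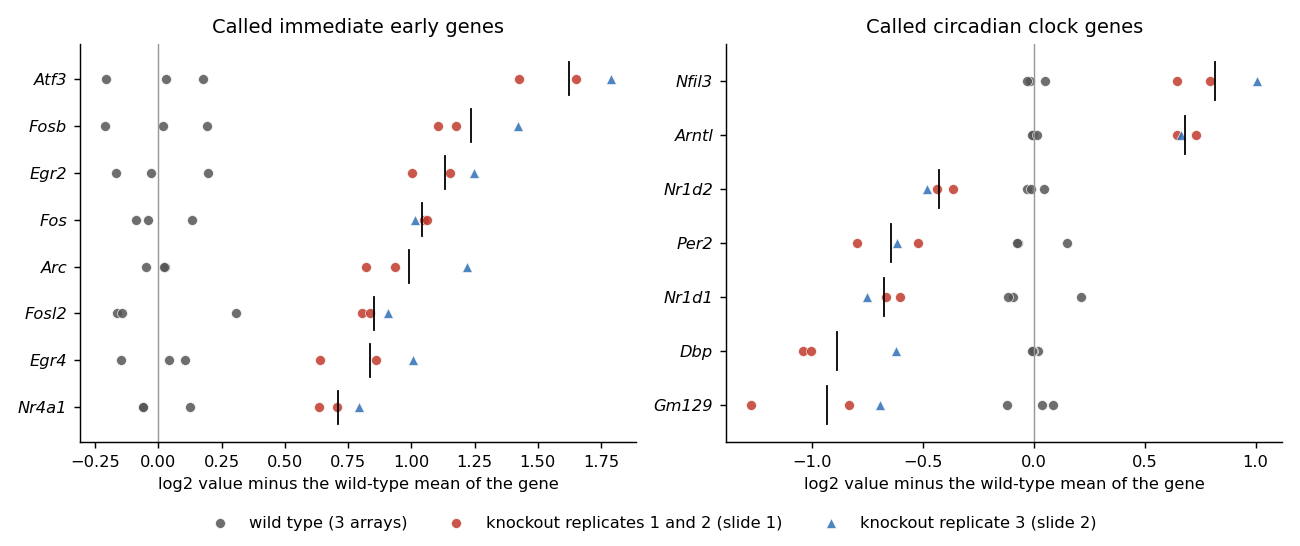
Immediate early and clock genes by array. Rows are the called members of each list, the x axis is the log2 value minus the wild-type mean of the gene, and symbols are as for the largest changes. All 8 called immediate early genes lie to the right of the wild type, while clock genes lie on both sides, with Arntl and Nfil3 higher and Dbp, Gm129, Per2, Nr1d1 and Nr1d2 lower.

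The circadian clock list showed shifts in opposite directions. In this feedback loop BMAL1, the product of Arntl, binds E-boxes with CLOCK and drives Per, Nr1d and Dbp genes, whose products repress the loop or act on D-boxes. Of 25 genes tested, 2 rose and 5 fell, beside 0.609% and 0.469% of all genes. The list's median change was -0.06, which hides these opposite members.

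Arntl read 0.85, 0.85 and 0.87 in the wild type and 1.589, 1.502 and 1.518 in the knockout, a rise of 0.68 ± 0.05 (adjusted p = 0.000212). Nfil3, a repressor acting on the D-box, rose by 0.82 ± 0.09 (0.00358). From replicates 1 and 2 the rises were 0.69 (0.000604) and 0.72 (0.00703). Both calls held when any 1 array was left out.

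Dbp, an activator acting on the D-box, read 5.54, 5.52 and 5.51 in the wild type and 4.48, 4.52 and 4.90 in the knockout, a change of -0.89 ± 0.13 (adjusted p = 0.0142), and a second probe gave -0.92 (0.0145). Per2, a repressor of the loop, fell from -1.28, -1.28 and -1.06 to -1.729, -2.004 and -1.82, by 0.65 ± 0.09 (0.0102). Gm129, another repressor of BMAL1 and CLOCK, fell by 0.93 ± 0.14 (0.013). The receptors Nr1d2 and Nr1d1, which repress Arntl and Nfil3, fell by 0.43 ± 0.06 (0.0149) and 0.68 ± 0.14 (0.0491). A second, dimmer Nr1d2 probe gave -0.265 ± 0.08 (0.126) and was not called. Nr1d1 is outside the naming rule and is named after its values were seen. The changes from replicates 1 and 2 were -1.02 for Dbp (adjusted p = 0.00862), -0.66 for Per2 (0.0276), -1.05 for Gm129 (0.0129), -0.40 for Nr1d2 (0.0357) and -0.64 for Nr1d1 (0.11), the last not called. Per1, which is also counted among the immediate early genes, differed by 0.08 ± 0.19 (0.853).

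The count of 7 clock genes was 3 to 6 with 1 array left out: 4 without wild-type replicate 1 and 3 without wild-type replicate 2. Nr1d1 lost its call whichever array was left out (adjusted p up to 0.131). Per2 stayed called whichever array was left out, but not when only the 6 arrays at 6 weeks were fitted. Of the 7, Arntl alone stayed called from those 6 arrays. Leaving out wild-type replicate 2 ended the calls of Dbp, Gm129 and Nr1d2, leaving out wild-type replicate 1 those of Dbp and Gm129, and leaving out knockout replicate 1 that of Dbp, with adjusted p up to 0.0559, 0.0513 and 0.0633 for the 3 genes. Of the 7, only Arntl stayed called once slide column entered the fit as a block, at 0.65 (0.0258). The others kept their sign but not their call: Nr1d2 at -0.56 (0.0843), Dbp at -1.11 (0.13), Nfil3 at 0.74 (0.195), Gm129 at -0.98 (0.27), Per2 at -0.62 (0.299) and Nr1d1 at -0.62 (0.662). The part of slide column was not tested within this age.

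Of 23 genes that respond to glucocorticoids and stress, 3 rose, beside 0.609% of all genes. A total of 21 changes were above 0, beside 14916 of 25798 over all genes. The median was 0.18, or 0.07 from replicates 1 and 2, beside 0.04 and 0.02 over all genes. The cell cycle inhibitor Cdkn1a read -0.64, -0.70 and -0.24 in the wild type and 0.36, 0.39 and 0.99 in the knockout, a rise of 1.10 ± 0.17 (adjusted p = 0.0154), with the third knockout array highest, and of 0.90 from replicates 1 and 2 (0.0213). Pdk4, which shuts off pyruvate oxidation, rose by 0.57 ± 0.07 (0.00758; 0.50 and 0.0167 from replicates 1 and 2). The third was Zbtb16, on chromosome 9. The count was 1 without wild-type replicate 1 or 2, each of which ended the call of Cdkn1a (up to 0.0622). With slide column as a block none of the 3 stayed called: Cdkn1a was at 1.12 (0.339), Pdk4 at 0.46 (0.365) and Zbtb16 at 0.76 (0.503). Cdkn1a and Pdk4 also lost their calls on slide 1 alone and when only the 6 arrays at 6 weeks were fitted.

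Of 22 heat shock and unfolded protein response genes, the inducible chaperone Hspa1a alone was called, at 0.76 ± 0.14 (0.0363) with all 3 arrays and 0.59 (0.0522) with replicates 1 and 2. That call ended without any array other than knockout replicate 2, up to 0.103. With replicates 1 and 2 alone, the 1 called member was Cryab, which was lower, at -0.64 (0.00521). With all 3 knockout arrays Cryab changed by -0.49 ± 0.12 (0.0741) and was not called. Cryab lies 0.175 Mb from Il18, is outside the naming rule and is named after its values were seen. The list's median was 0.21.

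Because whole brain was measured, fewer cells of a type and less RNA per cell cannot be told apart. Among 26 genes of endothelial cells and pericytes, the median change was 0.22, or 0.25 from replicates 1 and 2. Of these changes, 20 were above 0, beside 14916 of 25798 over all genes. The tight-junction gene Cldn5 was the 1 called member. It read 2.25, 2.21 and 2.13 in the wild type and 2.93, 2.71 and 2.94 in the knockout, a rise of 0.66 ± 0.09 (adjusted p = 0.0122; 0.62 and 0.0386 from replicates 1 and 2), and its call ended without knockout replicate 1 (0.0542). The call of Cldn5 also ended on slide 1 alone, with slide column as a block (0.50, adjusted p = 0.499) and when only the 6 arrays at 6 weeks were fitted. Tek, an endothelial receptor, differed by 0.47 ± 0.11 (0.0674), and the smooth muscle gene Tagln by -1.09 ± 0.30 (0.109). Apold1, an endothelial gene responsive to stimulation, rose by 1.11 ± 0.20 (0.0326; 1.19 and 0.0612 from replicates 1 and 2) and by 0.83 at a second probe (0.0062), but the call of its first probe ended without wild-type replicate 1 or any 1 knockout array (up to 0.0862).

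Choroid plexus genes had the lowest median of the 29 lists, -0.27, or -0.37 from replicates 1 and 2. That median ranged from -0.37 to -0.11 with 1 array left out and was -0.18 when each array was scaled to its median. No member of 27 was called with all arrays and at most 1 with 1 array left out. A total of 11 had an unadjusted p under 0.05 and 7 changes were above 0, beside 4907 and 14916 of 25798 genes. The list's mean level was -0.54, -0.73 and -0.79 on the wild-type arrays and -0.79, -1.16 and -0.74 on the knockout arrays, so that the genotypes overlapped. The coagulation factor gene F5 differed by -0.43 ± 0.14 (adjusted p = 0.157) and the carbonic anhydrase gene Car12 by 0.38 ± 0.10 (0.095). Among 23 ependymal and motile cilium genes, 2 fell, beside 0.469% of all genes: Ccdc153, which lies near Il18, and Hydin. Hydin changed by -0.43 ± 0.09 (0.0491), and by -0.48 (0.062) from replicates 1 and 2. It lost its call whichever of the 6 arrays was left out (up to 0.128).

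Immune genes changed at few places. Itgax, the integrin CD11c of dendritic cells and activated microglia, was not well above background on any wild-type array and read -4.51, -4.40 and -4.24 in the knockout. It was at least 2.46-fold higher (adjusted p = 0.00405, and 0.0213 with replicates 1 and 2), and it stayed called whichever array was left out. Its call ended with slide column as a block (0.299) and after normexp background correction. Gpnmb and H2-Eb1 rose by 0.57 ± 0.10 (0.0263) and 0.48 ± 0.09 (0.0413). That makes 3 of 24 genes of activated microglia and macrophages, beside 0.609% of all genes called higher. From replicates 1 and 2 the changes of Gpnmb and H2-Eb1 were 0.525 (0.0707) and 0.39 (0.0737). The calls of Gpnmb and H2-Eb1 ended without any array other than knockout replicate 2, with adjusted p up to 0.0961 and 0.123. The list's median was 0.09.

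Of 25 interferon-stimulated genes, Oas2, a sensor of double-stranded RNA, rose by 0.70 ± 0.13 (adjusted p = 0.0396; 0.76 and 0.065 from replicates 1 and 2), which lost its call whichever array was left out (up to 0.116), and the list's median was -0.04. Of the 13 testable members of the neutrophil and T cell list, none was called and 3 had an unadjusted p under 0.05, beside 4907 of 25798 genes. Outside that list, the neutrophil granule genes Ctsg and Pglyrp1 rose by 0.755 ± 0.12 (0.0198) and 0.73 ± 0.13 (0.0293). The T cell gene Cd6 rose by 0.78 ± 0.12 (0.0176). From replicates 1 and 2 the changes were 0.66 (0.0547), 0.63 (0.0737) and 0.84 (0.033). Ctsg, Pglyrp1 and Cd6 are outside the naming rule and are named after their values were seen. The granule protein gene Ltf was above background on no wild-type array and on all 3 knockout arrays, at least 1.76-fold higher (adjusted p = 0.171). Among 12 erythroid genes, Slc25a37, the mitochondrial iron importer, rose by 0.43 ± 0.06 (0.013; 0.375 and 0.0207 from replicates 1 and 2), its second probe gave -0.13 (0.656), and the call ended without wild-type replicate 1 (0.0509). The haemoglobin-stabilising gene Ahsp was not above background on any wild-type array and was at least 1.66-fold higher on the knockout arrays (0.0576; 0.0479 with replicates 1 and 2).

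Monoamine and acetylcholine neuron genes had 1 rise and 2 falls among 31, beside 0.609% and 0.469% of all genes. Their median was -0.11, and 9 changes were above 0, beside 14916 of 25798 over all genes. Besides Pts, the serotonin transporter gene Slc6a4 read -1.27, -1.41 and -1.55 in the wild type and -1.99, -2.66 and -2.26 in the knockout, a change of -0.90 ± 0.17 (adjusted p = 0.0389; -0.92 and 0.0859 from replicates 1 and 2). Its call ended without any array other than knockout replicate 1, with adjusted p up to 0.115. Qdpr, which regenerates the tetrahydrobiopterin that Pts helps to make, rose by 0.41 ± 0.07 (0.0326) and by 0.30 at a second probe (0.0895). From replicates 1 and 2 Qdpr changed by 0.35 (0.062), and it lost its call whichever array was left out (up to 0.0995). With replicates 1 and 2 alone the list had 0 rises and 3 falls: Pts, Dbh at -1.05 (0.0194) and Slc6a2 at -0.89 (0.0295). With all 3 knockout arrays Dbh changed by -0.47 ± 0.38 (0.504) and Slc6a2 by -0.47 ± 0.29 (0.38). Dbh read -1.39, -1.73 and 0.18 on the knockout arrays. Dbh and Slc6a2 are outside the naming rule and are named after their values were seen.

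Among 25 enzymes of coenzyme A, folate and redox metabolism, the 2 called members were Ppcdc and Nnmt, beside 1.08% of all genes called. Both lie within 10 Mb of Il18, where 12.4% of genes were called, and no member elsewhere was called. The median change was 0.04. In the other neuronal and glial lists no gene was called. Counts with an unadjusted p under 0.05 were 3 of 25 for astrocytes, 8 of 25 for oligodendrocytes and myelin, 4 of 15 for their precursors, 5 of 35 for GABA receptors and interneurons, 7 of 34 for presynaptic vesicles, 8 of 25 for striatal, 4 of 23 for cerebellar and 7 of 24 for olfactory bulb genes, 5 of 30 for neuropeptides and 5 of 24 for meninges and fibroblasts, beside 4907 of 25798 genes. The oligodendrocyte cytoskeletal gene Ermn came close, reading 4.82, 4.78 and 5.05 against 3.48, 4.16 and 3.56. Its change was -1.15 ± 0.25 (adjusted p = 0.059), but a second probe gave 0.37 (0.108). Oxidative phosphorylation genes leaned one way by a small amount: 46 of 49 changes were above 0, beside 14916 of 25798 over all genes. Their median was 0.13, none was called and 6 had an unadjusted p under 0.05. That median was 0.06 from replicates 1 and 2 and 0.03 with quantile normalization. Scaling each array to its median moved the median of all genes from 0.04 to 0.13 and turned the list medians of clock, interferon-stimulated and microglial genes to 0.04, 0.06 and 0.08.

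**Figure D4:**
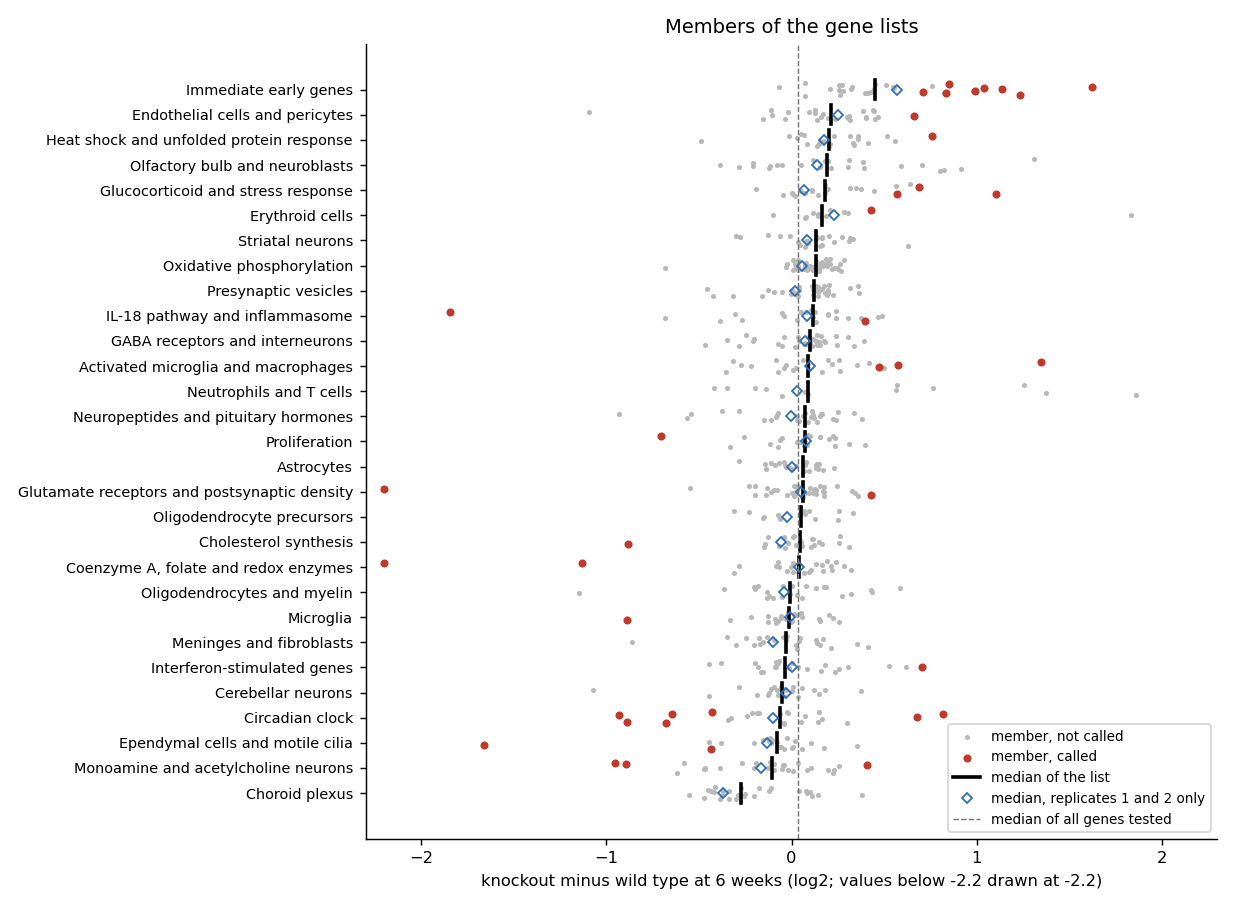
Members of the 29 gene lists. Each point is a gene, the x axis is knockout minus wild type at 6 weeks in log2 units, red points were called, black bars are list medians, blue diamonds are medians from knockout replicates 1 and 2, and the dashed line is the median of all genes. Immediate early genes have the highest median, 0.45, and choroid plexus genes the lowest, -0.27.

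At 12 weeks all knockout arrays are on the second slide and all wild-type arrays on the first, so that slide and genotype cannot be told apart there; 33.7% of genes were called. Against that share, 144 of the 278 genes called at 6 weeks were called at 12 weeks in the same direction and 18 in the opposite one, and 232 kept their sign. Near Il18 the named changes kept their sign: Il18 changed by -1.94 at 12 weeks, Bco2 by -1.46, Pts by -0.97, Tmem25 by -1.50 and Fxyd2 by 2.18. Mpeg1, on another chromosome, changed by -0.75. Ppcdc and Shank2 were lower in the knockout at 12 weeks too (adjusted p of the fit 8.13e-08 and 8.9e-06).

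The difference of the knockout change between ages was called for 72 genes (0.279%), 28 of which were among the 278. Of the immediate early genes, 9 of 31 had such a difference, and their median change was 0.45 at 6 weeks and -0.23 at 12 weeks. Of the clock genes, 3 of 25 did: Arntl, Dbp and Per2. The immediate early genes named here with a called difference were Atf3, Egr2, Fos, Arc, Nr4a1, Egr4 and Fosb.

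**Figure D5:**
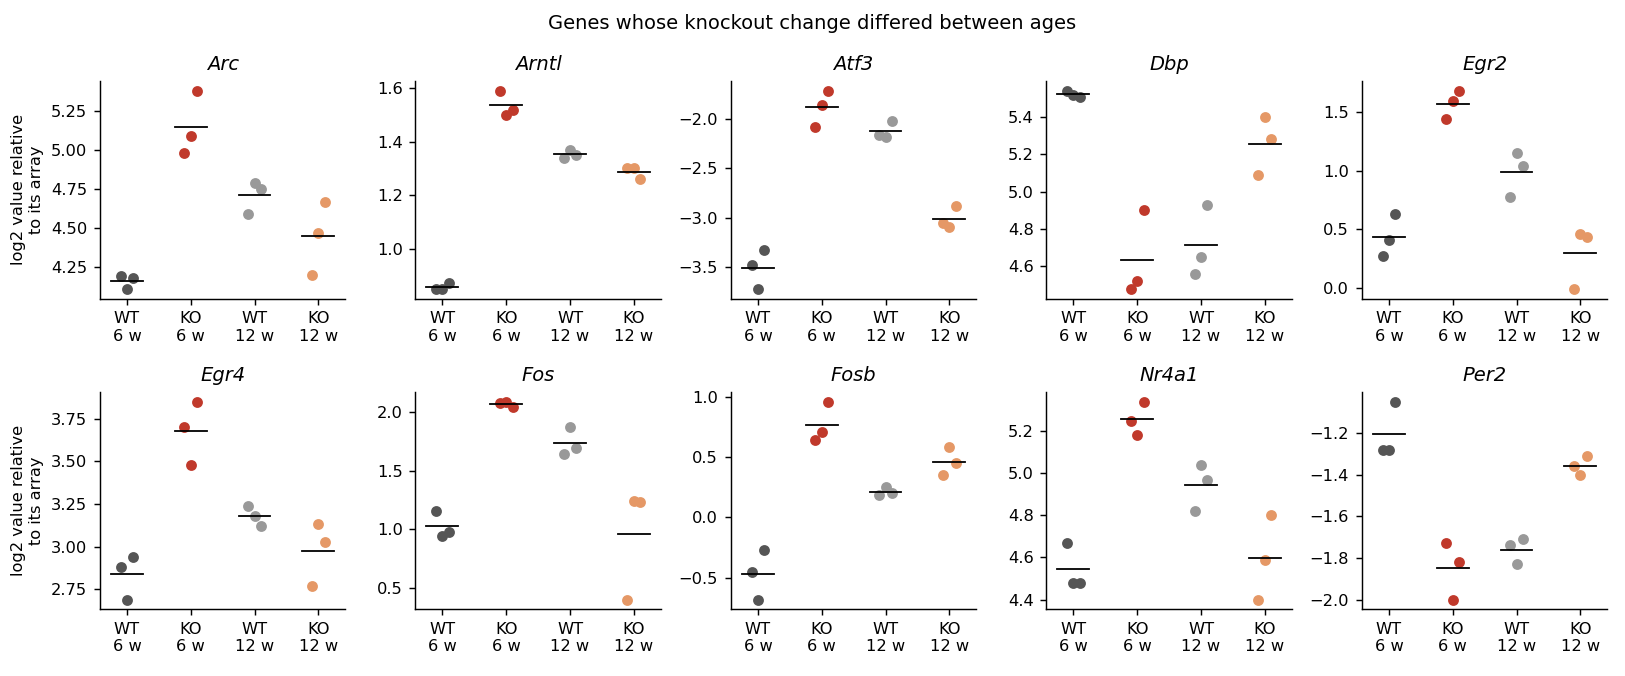
Genes whose knockout change differed between ages. Each panel is a gene, each point an array, each bar a group mean, and the y axis the log2 value relative to the array; WT is wild type, KO knockout and w weeks. Atf3 lies at -3.51 and -1.89 in wild type and knockout at 6 weeks and at -2.12 and -3.01 at 12 weeks, and Dbp shows the opposite order.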

How the data were processed

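Total RNA was labelled with Cy3 and hybridised to 1-colour arrays, per the labels' protocols, and the submitters' processing notes name Agilent Feature Extraction, version 10.7.3.1. The deposited signals are fluorescence intensity, per the file headers; other deposited columns are 0 or 1 and mark spots above background, saturated or outlying. The deposited value table, also intensity, differed from the processed signal by at most 0.498%.

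Of 62976 spots, 59305 were not controls; outlier spots (119 to 220 per array at 6 weeks) were left out, 0 were saturated, and spots of a probe were averaged. Of 35917 probes kept, the brightest per gene name over 12 arrays was used; 6834 genes had several. Limma 3.58.1 in R 4.3.3 fitted 4 group means over all 12 arrays (8 residual degrees of freedom; 7 with knockout replicate 3 apart). The number of arrays limits precision. Where no array of a group was above background, each of its arrays took the lowest signal of any probe above background there, or the probe's own signal where higher, and the fold is a lower bound.

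Positions are mm9, from the files; promoters are RefSeq, GRCm38.p6. The 29 gene lists, the naming rule and the comparison were chosen with earlier results of these data known. Named are Il18, the 12 largest rises and falls (not accession, RIKEN, Gm or LOC names or receptor gene segments), up to 6 called members per list (otherwise the 2 lowest p), up to 12 called genes within 10 Mb of Il18, and sex genes. Data for this comparison were simulated for 25751 genes with independent noise and no slide or slide column effect. Changes were added to a small part of the genes. Of the added changes, 84% of 2-fold and 90% of 4-fold ones were called. These rates do not cover slide or slide column effects. Same-numbered arrays of the 2 genotypes did not deviate together (correlations -0.101 to 0.002), so numbers do not pair them. Alternatives covered slide, slide column, a replicate block, background correction, scaling, filters, the fit, and leaving out each array; keeping outlier spots and other probes were added after seeing the data.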

Additional observations from a re-analysis of the deposited data

Results flagged for a closer look

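For 10 of the genes named in the text the knockout change itself differed between 6 and 12 weeks (limma, difference of the 2 changes, adjusted over all genes). The difference is the 12-week change minus the 6-week change, on the log2 scale. At 12 weeks genotype and slide cannot be told apart, and the part of slide, slide column and time of collection in these differences was not tested.

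Atf3 differed by -2.51 ± 0.17 (adjusted p = 0.000195): it was 1.62 higher in the knockout at 6 weeks and 0.89 lower at 12 weeks, a change of -0.89 ± 0.12 (adjusted p = 0.00342). Egr2 differed by -1.83 ± 0.21 (0.0105), from 1.13 at 6 weeks to -0.69 at 12 weeks. Fos differed by -1.82 ± 0.27 (0.0343), from 1.04 to -0.78, and Nr4a1 by -1.06 ± 0.15 (0.034), from 0.71 to -0.35; both are outside the naming rule. Arc differed by -1.26 ± 0.18 (0.0343), Egr4 by -1.04 ± 0.17 (0.0439) and Fosb by -0.99 ± 0.16 (0.0453). The 12-week changes of Arc, Egr4 and Fosb were -0.27, -0.20 and 0.25, none of them called. In these 7 genes the 6-week wild type was the lowest or second lowest of the 4 groups: the Fosb means were -0.47 and 0.77 in wild type and knockout at 6 weeks and 0.21 and 0.46 at 12 weeks.

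Among clock genes, Arntl differed by -0.75 ± 0.08 (0.00498), with group means of 0.86 and 1.54 in wild type and knockout at 6 weeks and 1.35 and 1.29 at 12 weeks. Dbp differed by 1.43 ± 0.19 (0.0208), with means of 5.52 and 4.63 at 6 weeks and 4.71 and 5.25 at 12 weeks. Per2 differed by 1.05 ± 0.13 (0.0118), from -0.65 at 6 weeks to 0.40 at 12 weeks. For all 3 genes the 12-week wild-type mean lay between the 6-week wild-type and 6-week knockout means.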

How the results depend on the processing

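Il18 kept its direction and its call under every setting run, between -2.11 (slide column as a block) and -1.75 (median scaling). The count of 278 called genes was 146 with slide as a fixed block, 91 on slide 1 alone, 103 with slide column as a block, 61 from the 6 arrays at 6 weeks alone, 95 without the filter on dim probes and 167 at a minimum fold of 1.5. It was 647 after normexp background correction, 482 after quantile normalization, 567 with median scaling and 460 with eBayes trend and robust, and 84 to 280 with 1 array left out. The 36 genes within 10 Mb of Il18 were 22 on slide 1 alone, 10 with slide column as a block, 14 from the 6 arrays alone and 22 to 31 with 1 array left out. With slide column as a block, 1 immediate early and 1 clock gene stayed called, although Arc changed by 0.81 and Dbp by -1.11; that column effect rests on the 3 wild-type arrays at 12 weeks. With a replicate block, 120 genes were called, 118 of them among the 278, and 29 near Il18; the numbers do not pair the arrays. No named gene reversed under any setting run.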
